A study of Homo sapiens with 6 samples.

Results

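The colony-stimulating factors, TSLP and their receptors are represented here by 8 genes among the 61267 genes of a deposited count table. The 5 ligand genes are CSF1, CSF2, CSF3, IL34 and TSLP, and the 3 receptor genes are CSF1R, CSF2RB and CSF3R. The genes were taken by name, and the set was chosen because CSF2 and TSLP were among the largest rises in KD. The KD against NC values of these 8 genes are therefore given as a description, without a test. A filter on low counts kept 7 of them, all but IL34, among 21905 genes tested.

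The libraries are labelled as THP-1, a human monocytic leukemia line, made adherent by 48 h of PMA, a phorbol ester, at 100 ng/ml. There were 3 libraries labelled KD and 3 labelled NC, and both groups received PMA. The labels name neither a target nor a method behind KD, and the series title names METTL1, an enzyme that writes m7G in RNA. Whether the 3 libraries of a group came from separate cultures is not stated, and the p-values reflect only the variation among these 6 libraries, possibly of technical origin.

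As background, colony-stimulating factors are secreted proteins that keep myeloid cells alive and steer their maturation. CSF1 (M-CSF) and IL34 share the receptor tyrosine kinase CSF1R, CSF2 (GM-CSF) acts through a specific alpha chain and the common beta chain CSF2RB, and CSF3 (G-CSF) acts through CSF3R. TSLP, a cytokine best known from epithelial barriers, uses the IL-7 receptor alpha chain with CRLF2, and the cytokine receptors without a kinase of their own signal through JAK kinases and STAT5 or STAT3.

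Total counts were between 37628972 and 42970216 in the 6 libraries. METTL1 had 567, 528 and 524 counts in the libraries labelled KD, against 596, 653 and 642 in those labelled NC, and its log2 fold change of -0.10 did not pass the test (edgeR quasi-likelihood, Benjamini-Hochberg adjusted p = 0.216). It was -0.29 with library sizes alone (adjusted p = 0.00249) and -1.39 on the leukocyte scale described below (adjusted p = 1.00e-16), where the median of all genes is -1.33. Whether METTL1 was called lower thus depends on the scale, and KD and NC below mean only how the libraries were labelled. The groups differed in cell-type markers as well. All 54 genes of a leukocyte list were higher in KD, summing to 10886 to 11028 CPM (counts-per-million values, here by library size) in KD and 4775 to 4855 CPM in NC, and none of them was at 0 in a group. A list of 12 genes known from HEK293, a human embryonic kidney line, summed to 32.7 to 37.5 CPM in KD and 2399 to 2729 CPM in NC, with 11 of 11 tested lower. LIN28B was at 0 in all KD libraries and had 3783, 3399 and 3910 counts in NC. SOX11, which missed the low-count filter, was at 0 in KD and had only 10, 0 and 2 counts in NC. NEFM, a neurofilament gene, alone averaged 0.390 ± 0.0282 CPM in KD and 1595 ± 198 CPM in NC (TMM-scaled, SD, n = 3 each), so the NC libraries go against the label of THP-1 cells alone in these markers. Whether they hold RNA of other cells was not tested, and every KD over NC ratio below carries that limit. Among 10 monocyte and macrophage markers, 8 of 9 tested were higher in KD (0 higher and 5 lower on the leukocyte scale defined next). Of all tested genes, 36.2% were called higher and 40.3% lower with TMM scaling, and 2.49% and 85.3% on the leukocyte scale. The monocyte and macrophage markers summed to 1233 to 1255 CPM in KD and 746 to 796 CPM in NC. The part of these marker differences in the values below was not tested, and in bulk RNA fewer cells of a type and less RNA per cell cannot be told apart. Values are therefore given on 2 scales: CPM after TMM scaling over all tested genes, and CPM taken over the 54 leukocyte genes alone, with TMM scaling (the leukocyte scale). The median log2 fold change of all tested genes was -0.05 on the TMM scale and -1.33 on the leukocyte scale, so most genes lie below 0 on the second.

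The sequences before the transcription starts of CSF2 and TSLP are shown because these are the 2 members with the highest KD over NC ratios. They are RefSeq windows on GRCh38.p14, 250 bases before to 50 after a start, all on chromosome 5, plus strand. Capitals mark matches on either strand to TGANTCA (AP-1), GGGA and CC with any 4 bases between them (NF-kB-type), GAGATTCC (the core of the CK-1 cytokine element), TTCNNNGAA (STAT), GAGGAA (PU.1-type) or TATAAA. No matches in these 4 windows overlapped each other. CSF2 is at chr5:132073539-132073838, and the 3 TSLP windows are at chr5:111069812-111070111, chr5:111071463-111071762 and chr5:111073124-111073423.
CSF2: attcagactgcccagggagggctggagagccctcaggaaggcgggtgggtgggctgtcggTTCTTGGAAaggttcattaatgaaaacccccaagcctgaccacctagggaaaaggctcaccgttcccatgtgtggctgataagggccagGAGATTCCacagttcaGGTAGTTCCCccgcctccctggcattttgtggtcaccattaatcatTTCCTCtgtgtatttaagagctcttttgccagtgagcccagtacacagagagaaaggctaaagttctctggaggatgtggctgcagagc
TSLP, start 1: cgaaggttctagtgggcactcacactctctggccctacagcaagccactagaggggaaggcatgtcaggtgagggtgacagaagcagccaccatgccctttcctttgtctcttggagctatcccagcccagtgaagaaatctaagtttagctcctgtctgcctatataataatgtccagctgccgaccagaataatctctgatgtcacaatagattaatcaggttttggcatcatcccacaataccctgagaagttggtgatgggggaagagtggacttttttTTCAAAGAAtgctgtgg
TSLP, start 2: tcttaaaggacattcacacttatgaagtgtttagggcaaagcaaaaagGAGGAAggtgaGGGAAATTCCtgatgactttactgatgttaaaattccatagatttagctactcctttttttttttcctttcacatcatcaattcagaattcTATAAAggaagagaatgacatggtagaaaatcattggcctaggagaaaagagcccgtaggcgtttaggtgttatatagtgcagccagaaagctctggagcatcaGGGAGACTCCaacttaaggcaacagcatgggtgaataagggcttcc
TSLP, start 3: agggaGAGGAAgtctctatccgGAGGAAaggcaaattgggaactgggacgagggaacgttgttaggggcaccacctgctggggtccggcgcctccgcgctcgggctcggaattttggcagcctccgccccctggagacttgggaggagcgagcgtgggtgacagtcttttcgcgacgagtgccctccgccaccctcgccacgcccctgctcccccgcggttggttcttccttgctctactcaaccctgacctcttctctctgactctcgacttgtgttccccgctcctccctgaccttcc
The CSF2 window held the CK-1 core 101 to 94 bases before the start, a motif found in 0.869% of 35116 RefSeq windows of this length. It also held an NF-kB-type match 85 to 76 bases before the start (25.6% of windows hold at least 1), a PU.1-type match (27.9%) and a STAT match (7.66%). Of the TSLP windows, the second held 2 NF-kB-type matches, a PU.1-type match and a TATAAA (11.5% of windows), the third held 2 PU.1-type matches and the first a STAT match. AP-1 letters (7.71% of windows) were in none of the 4 windows, which says nothing about AP-1 elsewhere at these genes. Gene-level counts do not show which TSLP start was used. Among the receptors, a window of CSF1R held 3 PU.1-type matches and another held the AP-1 letters, and 1 of 2 CSF3R windows held a PU.1-type match. Windows were at hand for 4 of the 8 genes.

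The members differ among themselves in a feature that their choice did not use, the pentamer ATTTA of AU-rich elements, which mark short-lived cytokine mRNAs for decay. In the longest 3′ UTR of each gene in GENCODE v29, CSF2 held 8 ATTTA in 318 bases, CSF3 7 in 854, TSLP 7 in 1950, CSF1 4 in 2154 and IL34 0 in 495. CSF2RB held 3 in 1947 bases, and CSF1R (778 bases) and CSF3R (314 bases) held 0. The densest 30 bases are shown for the 3 ligands with more than 1 pentamer there, with the pentamers in capitals. They lie at chr5:132076081-132076101, chr17:40016983-40017004 and chr1:109930924-109930940 on GRCh38, plus strand.
CSF2: ATTTATTTATTTATTTATTTA
CSF3: ATTTAtctctATTTAatATTTA
CSF1: ATTTAaatatctATTTA
The CSF2 stretch holds 5 overlapping pentamers, and 0.211% of 18945 protein-coding genes have as many within 30 bases. At least 3 within 30 bases, as in CSF3, occur in 2.97% of genes, and at least 2, as in CSF1, in 22.7%. The 7 pentamers of TSLP are spread out, with no more than 1 in any 30 bases.

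CSF2 and TSLP were low in NC and several-fold higher in KD. CSF2 (chromosome 5, 132073789 to 132076170, GRCh38, plus strand) had 210, 187 and 228 counts in KD, against 30, 26 and 44 in NC. That is 5.29 ± 0.504 CPM in KD and 0.773 ± 0.178 CPM in NC (mean ± SD, n = 3 each), a 6.79-fold ratio or 2.76 on the log2 scale (SE 0.183). The lowest KD library lay far above the highest NC library. TSLP (chromosome 5, 111070062 to 111078026, plus strand) had 416, 370 and 390 counts in KD, against 56, 61 and 59 in NC. Its mean was 9.96 ± 0.569 CPM in KD and 1.37 ± 0.0994 CPM in NC, a 7.25-fold ratio (log2 fold change 2.86, SE 0.130). Among the 21905 tested genes the log2 fold change of TSLP ranked 24th and that of CSF2 36th from the top, ranks that the choice of the genes fixed.

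The remaining ligands ran from abundant to almost absent. CSF1 (chromosome 1, 109910242 to 109930992, plus strand), the survival factor of macrophages, had 22966, 23992 and 23769 counts in KD, against 8440, 8275 and 8472 in NC. It stood at 599 ± 14.5 CPM in KD and 197 ± 7.84 CPM in NC, and its ratio of 3.05 (log2 fold change 1.61, SE 0.0434) was the most precise of the ligands. CSF3 (chromosome 17, 40015361 to 40017813, plus strand), the granulocyte factor, had only 76, 55 and 65 counts in KD and 23, 16 and 10 in NC. The groups did not overlap, and the log2 fold change of 2.11 carried the widest error of the 7 genes (SE 0.298). IL34 (chromosome 16, 70579895 to 70660682, plus strand), the second ligand of CSF1R, had 0, 2 and 0 counts in KD and 1, 0 and 0 in NC. No ratio can be given for it, and any difference was not detectable at this depth.

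The receptors had smaller TMM-scale ratios between the groups than the 4 tested ligands. CSF1R (chromosome 5, 150053291 to 150113372, minus strand) had 11097, 10654 and 11299 counts in KD, against 5688, 5471 and 5997 in NC, which is 280 ± 7.41 CPM in KD and 134 ± 1.11 CPM in NC (log2 fold change 1.07, SE 0.0400). CSF2RB (chromosome 22, 36913628 to 36940439, plus strand), the beta chain shared by the GM-CSF, IL-3 and IL-5 receptors, had 953, 963 and 831 counts in KD and 492, 530 and 559 in NC (log2 fold change 0.92, SE 0.0746). In both genes all KD libraries were above all NC libraries on the TMM scale. CSF3R (chromosome 1, 36466043 to 36483278, minus strand), the G-CSF receptor, had 68, 76 and 104 counts in KD and 59, 86 and 80 in NC. Its CPM overlapped between the groups, and the log2 fold change was 0.26 (SE 0.204). CSF2RBP1, a pseudogene of CSF2RB, had no count in any library. In TSLP, 230 of the 4263 exon bases also lie in an exon of an unnamed gene on the other strand that held at most 3 counts in a library, and no other member shared exon bases with a gene in the table.

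**Figure D1:**
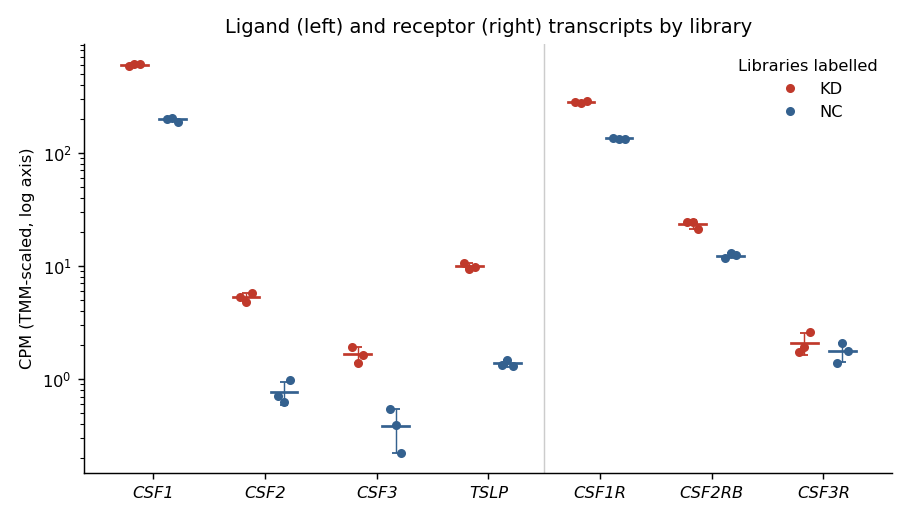
Level of 7 members in each library, as TMM-scaled CPM on a log axis, with KD points left of NC points, bars for the means and whiskers for the SD (n = 3 each). IL34 had at most 2 counts in a library and is not drawn. The 3 KD libraries lie above the 3 NC libraries for every gene drawn except CSF3R, with the widest gaps for TSLP and CSF2.

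On the TMM scale 6 of the 7 tested members passed the threshold as higher in KD and 0 as lower, where 36.2% of all tested genes were called higher, 40.3% lower and 76.5% in either direction. The same 6 genes had all KD libraries above all NC libraries in CPM, a pattern that 36.7% of tested genes showed. With library sizes alone, the same 6 members were again called higher (28.4% of all genes were). Since the members were chosen on this contrast, nothing is read from these counts.

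On the leukocyte scale the log2 fold changes of the tested members lie about 1.29 lower than on the TMM scale. The order of the members thus stays and only their place relative to 0 moves. CSF2 stood at 476, 412 and 512 leukocyte-scale CPM in KD, against 153, 134 and 212 in NC (log2 fold change 1.48, SE 0.194). TSLP stood at 943, 816 and 875 in KD, against 286, 315 and 284 in NC (log2 fold change 1.57, SE 0.139). CSF1 was at 52038, 52883 and 53353 in KD and 43137, 42730 and 40744 in NC, which is 0.32 on the log2 scale (SE 0.0496). Every KD library of these 3 ligands lay above every NC library, which for CSF2 and TSLP largely follows from their choice as large rises. The share of all tested genes with that pattern was not counted on this scale. CSF3 was at 172, 121 and 146 in KD and 118, 82.6 and 48.1 in NC (log2 fold change 0.83, SE 0.307), also without overlap but with the lowest KD and highest NC library close together.

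The receptors lay below 0 on that scale, and above its all-gene median of -1.33. CSF1R was at 25144, 23484 and 25362 leukocyte-scale CPM in KD and 29072, 28251 and 28841 in NC (log2 fold change -0.22, SE 0.0487). CSF2RB was at 2159, 2123 and 1865 in KD and 2515, 2737 and 2688 in NC (log2 fold change -0.37, SE 0.0758). CSF3R was at 154, 168 and 233 in KD and 302, 444 and 385 in NC (log2 fold change -1.02, SE 0.204). Of the 7 members, 4 were called higher (all ligands) and 3 lower (all receptors) on this scale, where 2.49% of all tested genes were called higher and 85.3% lower, and nothing is read from these counts either. Set against the 54 leukocyte genes themselves, whose TMM log2 fold changes ran from 0.46 to 1.78 with a median of 1.29, CSF2, CSF3 and TSLP lay above all 54 and CSF1 above 50, which for CSF2 and TSLP follows from their choice as large rises. CSF1R lay below 40 of them, CSF2RB below 47 and CSF3R below all 54.

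**Figure D2:**
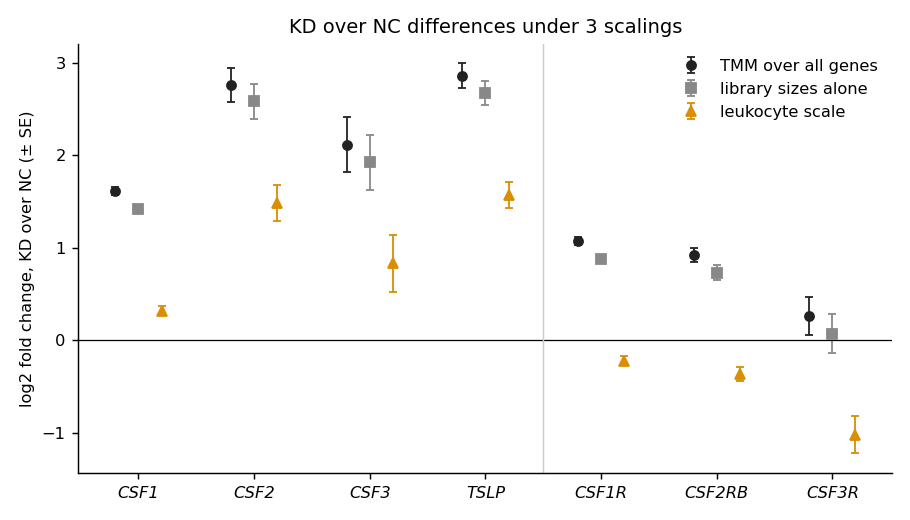
Log2 fold change, KD over NC, of 7 members with SE bars under TMM over all genes (black circles), library sizes alone (grey squares) and the leukocyte scale (orange triangles). The 4 ligands stay above 0 on all 3 scales, while CSF1R, CSF2RB and CSF3R drop below 0 on the leukocyte scale, to -0.22, -0.37 and -1.02.

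**Figure D3:**
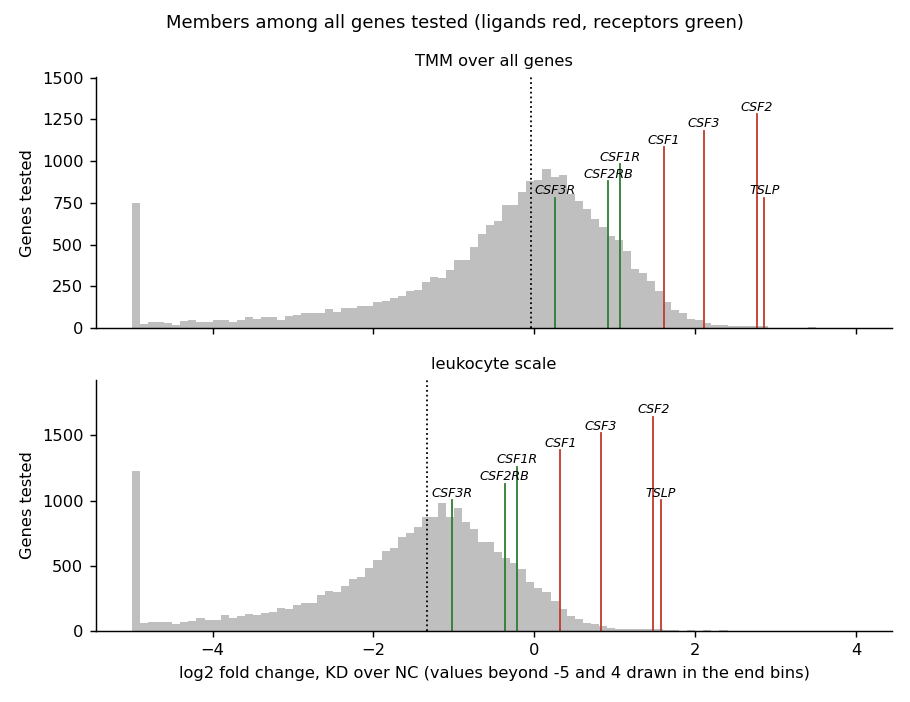
Distribution of log2 fold changes, KD over NC, of 21905 tested genes (grey bars, genes per bin) on the TMM scale (top) and the leukocyte scale (bottom), with ligands as red and receptors as green lines and the median of all genes dotted. The ligands lie in the upper tail on both scales, and the dotted line moves from -0.05 at the top to -1.33 at the bottom.

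Ratios of members within a library do not depend on any scaling between libraries. Levels were divided by exon length for these, the union of a gene's annotated exons. The size of a ratio depends on that length, and its comparison between the groups does not. CSF2 and TSLP were chosen as large rises. How ratios that hold either of them compare between the groups thus largely follows from that choice. The CSF2 to CSF2RB ratio was 1.40, 1.23 and 1.74 in KD, against 0.386, 0.311 and 0.498 in NC. The message of the ligand was thus more abundant per length than that of its beta chain in each KD library and less abundant in each NC library. The CSF1 to CSF1R ratio was 2.04, 2.21 and 2.07 in KD and 1.46, 1.49 and 1.39 in NC, without overlap. CSF3 to CSF3R was 5.33, 3.45 and 2.98 in KD and 1.86, 0.888 and 0.597 in NC, also without overlap but on few counts. Between the ligands, TSLP to CSF2 was 0.366, 0.366 and 0.316 in KD and 0.345, 0.434 and 0.248 in NC, so the groups overlapped and the means, 0.349 in KD and 0.342 in NC, differed by less than the SD of either group. TSLP to CSF1 averaged 0.0205 ± 0.00167 in KD and 0.00859 ± 4.53e-04 in NC (SD, n = 3 each), without overlap. Between the receptors, CSF2RB to CSF1R overlapped, at 0.0860 ± 0.00900 in KD and 0.0952 ± 0.00543 in NC, while CSF3R to CSF1R was 0.00298, 0.00347 and 0.00448 in KD, each below the 0.00504, 0.00764 and 0.00649 of NC.

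**Figure D4:**
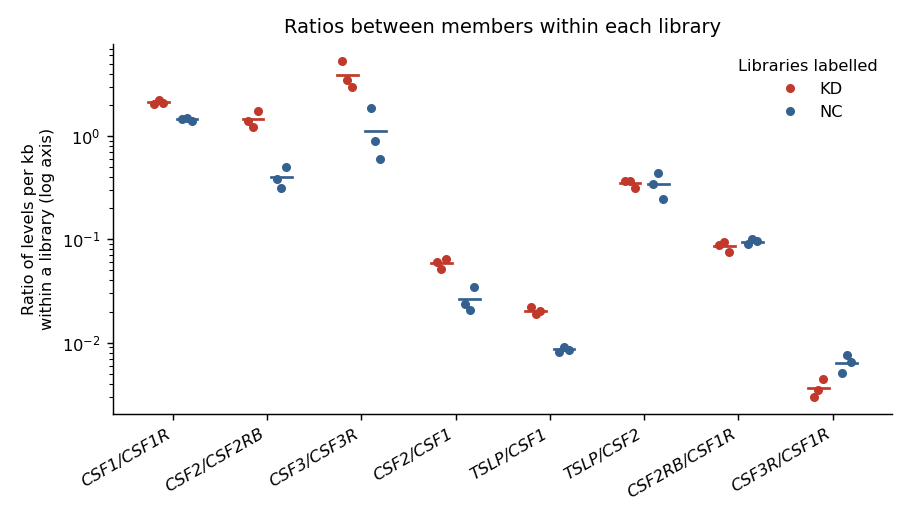
Ratios of length-corrected levels of 2 members within each library, on a log axis, with KD left of NC, points for libraries and bars for means. The 3 ligand to receptor ratios lie higher in KD, TSLP/CSF2 and CSF2RB/CSF1R overlap, and CSF3R/CSF1R lies lower in KD. Ratios that hold CSF2 or TSLP largely follow from the choice of these genes as large rises.

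The order of levels per kb of exon was led by CSF1 and CSF1R in both groups. The length is the union of a gene's annotated exons (10594 bases for CSF3R and 2220 for CSF3), so the order rests on it. In KD the order was CSF1 (114 CPM per kb), CSF1R (54.4), CSF2 (6.72), CSF2RB (4.67), TSLP (2.34), CSF3 (0.748), CSF3R (0.198) and IL34 (0.00762), and no neighbours in that order overlapped over the libraries. In NC it was CSF1 (37.5 CPM per kb), CSF1R (26.0), CSF2RB (2.47), CSF2 (0.981), TSLP (0.322), CSF3 (0.174), CSF3R (0.166) and IL34 (0.00354), with CSF3 and CSF3R overlapping. CSF2 and CSF2RB thus stood in opposite order in the groups. That swap, and the shares of CSF2 and TSLP given next, largely follow from the choice of both ligands as large rises. CSF1 made up 92.1% ± 0.701 of the summed length-corrected level of the 5 ligands in KD and 96.2% ± 0.532 in NC, CSF2 5.41% ± 0.536 in KD and 2.53% ± 0.678 in NC, and TSLP 1.88% ± 0.143 in KD and 0.826% ± 0.0458 in NC (SD, n = 3 each).

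The partner receptors of the members were tested in the fit over all genes. Of 12 receptor genes outside the members, 10 passed the low-count filter, 5 were higher and 1 lower in KD (all genes: 36.2% and 40.3%), with a median log2 fold change of 0.75 against -0.05 for all genes. On the leukocyte scale 1 was higher and 5 lower (all genes: 2.49% and 85.3%). IL7R, the TSLP receptor subunit shared with IL-7, rose to 13.1 ± 0.292 CPM in KD, against 4.08 ± 0.310 CPM in NC (edgeR adjusted p = 4.46e-14), and was the 1 gene of the list called higher on the leukocyte scale too (log2 fold change 0.39, adjusted p = 7.76e-04). CRLF2, the subunit specific to TSLP, had 24, 20 and 11 counts in KD and 14, 4 and 14 in NC, and did not pass (edgeR adjusted p = 0.0794), though without KD replicate 3 its log2 fold change of 1.17 did (0.0354). CSF2RA, the GM-CSF-binding alpha chain, had 265, 271 and 273 counts in KD and 114, 110 and 111 in NC. Its log2 fold change was 1.39 (SE 0.122, edgeR adjusted p = 1.80e-10) on the TMM scale and 0.10 on the leukocyte scale (adjusted p = 0.441). IL3RA, the IL-3 receptor alpha chain, had 396, 388 and 367 counts in KD and 211, 159 and 217 in NC, and IL2RG, the common gamma chain, had 80, 73 and 85 in KD and 45, 32 and 44 in NC. Both were called higher on the TMM scale (edgeR adjusted p = 1.71e-09 and 6.48e-05) and not called on the leukocyte scale. SDC1, a syndecan reported to bind IL34, was called higher on the TMM scale (log2 fold change 0.60) and lower on the leukocyte scale (-0.69). KIT, the stem cell factor receptor, fell to 6, 2 and 4 counts in KD, against 124, 106 and 110 in NC (log2 fold change -4.66, edgeR adjusted p = 1.64e-12). FLT3 and EPOR did not pass, and IL5RA and PTPRZ1 had at most 4 counts in a library.

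Other ligands of this kind were few. Of 9, 4 passed the filter and 3 were higher and 1 lower in KD (all genes: 36.2% and 40.3%), with a median log2 fold change of 0.86. IL33, which like TSLP is an alarmin of barrier tissues, stood at 9.50 ± 0.556 CPM in KD and 3.51 ± 0.377 CPM in NC (edgeR adjusted p = 1.87e-11), and its leukocyte-scale log2 fold change of 0.15 missed the threshold. KITLG, the ligand of KIT, was at 33.0 ± 2.53 CPM in KD and 15.8 ± 0.874 CPM in NC (adjusted p = 2.74e-13 by edgeR), and was called lower on the leukocyte scale (-0.22). FLT3LG (log2 fold change 0.66, edgeR adjusted p = 0.0456) lay just past the threshold. Its call was lost when any library but NC replicate 2 was left out (adjusted p = 0.0540 to 0.265), with DESeq2 (0.0774) and with library sizes alone (0.157). On the leukocyte scale FLT3LG was called lower (log2 fold change -0.62, edgeR adjusted p = 0.0493). IL7 fell on both scales, to 3.88 ± 0.253 CPM in KD, against 10.0 ± 0.414 CPM in NC (edgeR adjusted p = 1.23e-11). IL3, the neighbour of CSF2 in the cytokine cluster of chromosome 5, and IL25 had 0 counts in all 6 libraries, which allows up to 3 counts in each. THPO, the platelet factor, had 0 in KD and 3, 7 and 13 in NC.

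Signalling components behind these receptors were mostly higher on the TMM scale. Of 23 genes, all tested, 19 were higher and 1 lower, where 36.2% and 40.3% of all genes were (median log2 fold change 0.83). On the leukocyte scale these counts were 3 and 16, where 2.49% and 85.3% of all genes were (median -0.46). Genes higher on both scales included STAT5A (log2 fold change 1.54, SE 0.0578, edgeR adjusted p = 7.31e-18) and the feedback inhibitor SOCS3 (1.51, SE 0.0650, adjusted p = 1.16e-16). STAT5A stood at 42.0 ± 1.11 CPM in KD and 14.5 ± 0.392 CPM in NC, while its close relative STAT5B was at 24.5 ± 0.889 CPM in KD and 23.5 ± 1.18 CPM in NC and did not pass (adjusted p = 0.377); on the leukocyte scale STAT5B was called lower (-1.23). JAK2, the kinase bound to CSF2RB, was higher on the TMM scale (1.27) and at -0.02 on the leukocyte scale. SPI1, which encodes the transcription factor PU.1, was likewise at 1.26 and -0.03. CISH, a STAT5-induced inhibitor, had 36, 36 and 52 counts in KD and 44, 44 and 48 in NC, without a call (log2 fold change -0.01, edgeR adjusted p = 0.964), and was called lower on the leukocyte scale (-1.30). SOCS2 fell to 5, 10 and 4 counts in KD, against 226, 263 and 213 in NC (log2 fold change -5.07). KIT and SOCS2 fell in the same libraries in which the HEK293 list fell, and the part of that list in their fall was not tested.

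Genes known to respond to GM-CSF or M-CSF in macrophages were mostly higher on the TMM scale. Of 18, 14 were tested and 11 were higher and 0 lower, beside 36.2% and 40.3% of all genes (median log2 fold change 1.00). C1QA, C1QB and CD1E did not pass, and C1QC, which missed the low-count filter, was called lower when any of KD replicates 1 to 3 or NC replicate 1 was left out (log2 fold change -2.95 to -2.03). CCL22, a chemokine induced by GM-CSF, rose to 512, 516 and 536 counts in KD, against 110, 112 and 138 in NC (edgeR adjusted p = 5.34e-16), and was called higher on the leukocyte scale (log2 fold change 0.95). The survival gene BCL2A1 (log2 fold change 1.62, edgeR adjusted p = 5.26e-21) was the other gene called higher on both scales. PIM1, a kinase induced through STAT5 (1.20, SE 0.0495), and PPARG (1.19, SE 0.0631) were at -0.08 and -0.10 on the leukocyte scale, without a call. CD163 (0.94, SE 0.0788), a gene of the M-CSF type of macrophage, was called lower there, at -0.35. On that scale 2 of the list were higher and 9 lower, beside 2.49% and 85.3% of all genes. CCL17 had 3 to 6 counts in a library and FOLR2 had 0 in all 6.

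Genes for proteins that bind AU-rich elements or decay mRNA went both ways, much as all genes did. Of 13, all tested, 5 were higher and 6 lower in KD on the TMM scale (all genes: 36.2% and 40.3%), with a median log2 fold change of -0.09. ZFP36 (0.63), ZFP36L1 (0.71), ZFP36L2 (0.79), ZC3H12A (1.47, SE 0.0555, edgeR adjusted p = 7.72e-18) and RC3H1 (0.78) were higher. ZC3H12A was at 59.4 ± 2.08 CPM in KD and 21.4 ± 1.48 CPM in NC and was the 1 gene of the list called higher on the leukocyte scale (0.19). ELAVL1 (-0.45), HNRNPD (-0.60), KHSRP (-0.54), TIA1 (-0.22) and ILF2 (-0.51) were among those that fell, and on the leukocyte scale 12 of the 13 were lower (all genes: 85.3%).

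**Figure D5:**
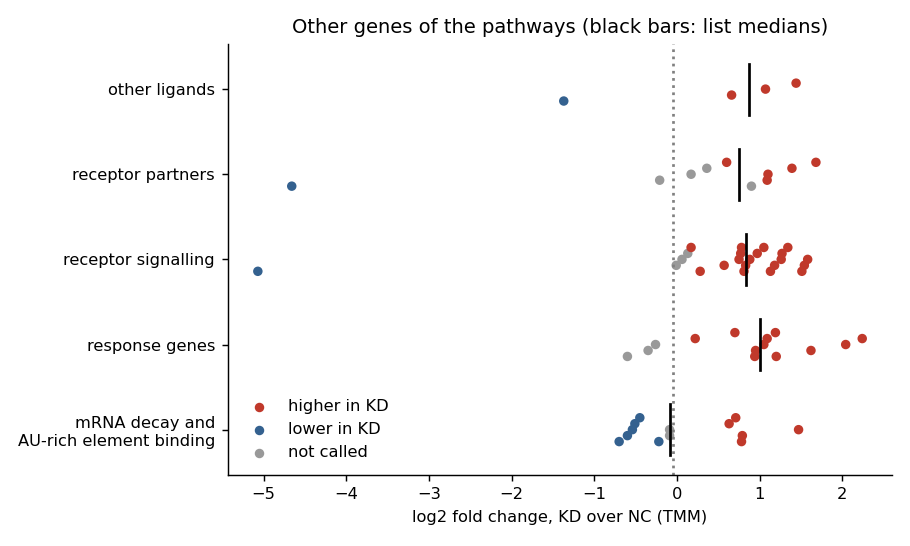
Log2 fold change, KD over NC on the TMM scale, of the tested genes of the 5 lists outside the members, coloured red where called higher, blue where called lower and grey where not called, with list medians as black bars and the median of all genes dotted. The medians are 0.86, 0.75, 0.83, 1.00 and -0.09 from top to bottom, and KIT and SOCS2 stand alone at the far left.

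The tested neighbours of CSF2 and TSLP on chromosome 5 are given for their own values, since almost any gene lies below 2 genes chosen as large rises. The nearest tested genes below CSF2 were ACSL6, at a gap of 61546 bases, and the unnamed ENSG00000281938 and ENSG00000234758. All 3 fell, where 40.3% of all tested genes were called lower. Their spans on the chromosome overlap, so they are not 3 separate places. The log2 fold changes were -5.30 for ACSL6 and -2.06 for ENSG00000281938. ENSG00000234758 had 2, 0 and 0 counts in KD and 28, 32 and 39 in NC, and its fitted log2 fold change of -5.27 was -8.00 without KD replicate 1, so its size is poorly set. Above it, P4HA2-AS1 was not called, and P4HA2 (0.70) and PDLIM4 (1.08) were called higher on the TMM scale and lower on the leukocyte scale. Near TSLP, WDR36, at a gap of 14295 bases, had 788, 828 and 844 counts in KD and 832, 818 and 798 in NC and was not called (log2 fold change 0.13, edgeR adjusted p = 0.0933). CAMK4 (-0.38) fell, SLC25A46 (0.29), TMEM232 (0.66) and MAN2A1 (0.85) were called higher on the TMM scale and lower on the leukocyte scale, and STARD4 (1.58) was called higher on both. The TMEM232 call did not hold without KD replicate 2 (adjusted p = 0.0749), KD replicate 3 (0.0705) or NC replicate 2 (0.126), and CAMK4 was not called without KD replicate 1 (0.0584).

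The tested protein-coding genes with the pattern most like CSF2 over the 6 libraries were CEMIP, FCN1 and TSLP, with root mean square differences of 0.210, 0.239 and 0.243 in log2 CPM centred on the NC mean. With only 2 groups this measure mainly finds genes of like KD over NC ratio, the value for which CSF2 and TSLP were chosen, so that TSLP is near CSF2 is no separate result. For TSLP they were CEMIP (0.113), IL1A (0.159) and IL12B (0.165), out of 14519 genes compared. CEMIP, a hyaluronan-degrading factor, had 7306, 7457 and 7346 counts in KD and 1230, 1195 and 1276 in NC. IL12B, the p40 subunit of IL-12 and IL-23, had 130, 146 and 119 counts in KD and 18, 22 and 22 in NC.

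Several defining markers of other cells that can make these cytokines were at 0, and others had counts. The T-cell receptor genes CD3E and CD3G had no count in any library, CD3D had none in KD and 16, 4 and 14 in NC, and CD2 had 1 count in 1 KD library. The 9 T and NK cell genes summed to 13.8 to 14.8 CPM in KD and 3.93 to 5.14 CPM in NC, with GNLY (366, 416 and 363 counts in KD, against 66, 89 and 76 in NC) and TRAC the main contributors. GNLY was called higher on the TMM scale (log2 fold change 2.43) and on the leukocyte scale (1.14). TRAC was called higher on the TMM scale (1.45) and not called on the leukocyte scale. NKG7 was not called on the TMM scale and was called lower on the leukocyte scale (-1.88). The keratinocyte gene KRT14 had 0 counts throughout and KRT5 0 in KD, and the 7 epithelial genes summed to 1.68 to 1.83 CPM in KD and 5.10 to 5.96 CPM in NC. Of the 4 tested, EPCAM (28, 20 and 20 counts in KD, against 137, 84 and 146 in NC), CDH1 and CLDN4 were called lower on the TMM scale. Their log2 fold changes were -2.30, -2.28 and -1.74. KRT19 had 28 to 40 counts in a library and was not called. On the leukocyte scale all 4 were lower (all genes: 40.3% lower on the TMM scale and 85.3% here). The 7 fibroblast genes summed to 2.26 to 2.94 CPM in KD and 3.30 to 3.71 CPM in NC, with LUM at 0 in KD. COL1A1, most of that sum, fell (log2 fold change -0.56, edgeR adjusted p = 0.00499), and PDGFRB (16, 31 and 22 counts in KD, against 10, 8 and 10 in NC) was called higher on the TMM scale (adjusted p = 0.00348). The mast cell gene CPA3 had 0 counts in every library, and the 5 mast cell genes summed to 5.66 to 7.28 CPM in KD and 10.0 to 10.8 CPM in NC. That sum is mostly GATA2 (5.91 ± 0.892 CPM in KD and 9.47 ± 0.358 CPM in NC), which fell, while MS4A2 (26, 24 and 24 counts in KD, against 6, 8 and 4 in NC) and TPSAB1 (20, 18 and 22 in KD, against 4, 10 and 15 in NC) were called higher on the TMM scale and not called on the leukocyte scale. The 5 B-cell genes summed to 1.93 to 2.68 CPM in KD and 4.86 to 5.26 CPM in NC, with MS4A1 at 0 in NC. The 4 endothelial genes summed to 323 to 327 CPM in KD and 124 to 130 CPM in NC, nearly all of it PECAM1, which monocytes also express. CDH5 was at 0 in NC. VWF had 80, 93 and 132 counts in KD, against 41, 44 and 46 in NC, and KDR 34, 35 and 20, against 14, 14 and 21. Both were called higher on the TMM scale and not called on the leukocyte scale.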

How the data were processed

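RNA from PMA-treated THP-1 cells was made into libraries for the DNBSEQ-T7 platform, per the labels' protocols. fastp version 0.23.0 and GRCh38 are named in the submitters' processing notes. Aligner, counter, annotation release and strandedness: not given in the sources used here. Deposited values are raw counts per gene, not normalized, beside exon coordinates and lengths. Of counts between 1 and 20, 67.8% to 70.3% were even numbers, and of counts above 1000 it was 50.2% to 51.4%, so small counts may hold fewer independent fragments than their number, and count-based limits cover counting error only.

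Groups follow the labels. Libraries of a group were not identical and differed by more than sampling noise (chi-square over its degrees of freedom, 3.241 to 6.462). The test across genes was that of edgeR 4.0.16 under R 4.3.3 (quasi-likelihood with robust estimation, TMM, filterByExpr), at a two-sided Benjamini-Hochberg adjusted p of 0.05 over 21905 genes. Each SE is the log2 fold change over the square root of F. The steps were tested on simulated counts with few genes changed, as many up as down. That cannot check the scaling in these data, where most genes were called. The leukocyte scale is TMM over 54 leukocyte genes alone. The members, gene lists, scales and tests were chosen with earlier results of these data known. Named genes are the members, METTL1, genes of the lists and markers, the 3 nearest tested genes on each side of CSF2 and TSLP, and the 3 genes most like each in log2 CPM (prior count 2). Promoter windows are from RefSeq, matched by symbol for 4 of 8 members, and 3′ UTRs from GENCODE v29. Alternatives were the leukocyte scale, library sizes alone, size factors as in DESeq2, DESeq2 1.42.0 itself, counts divided by 2, no low-count filter, a filter at a mean of 1 CPM, a replicate block and leaving out each library. Some genes of the lists are not reported here. Scripts used Python 3.11.15 with pandas 2.3.3.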

Additional observations from a re-analysis of the deposited data

How the results depend on the processing

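The leukocyte scale changed the most. On it 546 genes were called higher and 18690 lower (2.8% of calls higher, against 47.3% with TMM and 37.5% with library sizes alone). Log2 fold changes there were 0.32 for CSF1, 1.48 for CSF2, 0.83 for CSF3 and 1.57 for TSLP, while CSF1R (-0.22), CSF2RB (-0.37) and CSF3R (-1.02) changed sign. Calls higher and lower there were 0 and 3 for other ligands, 1 and 5 for receptor partners, 3 and 16 for signalling, 2 and 9 for response genes and 1 and 12 for the AU-rich element binding list. P4HA2 (-0.59), PDLIM4 (-0.21), SLC25A46 (-0.99), TMEM232 (-0.63), MAN2A1 (-0.43) and WDR36 (-1.16) reversed on it, by the construction of a scale that lowers most values by about 1.29. With library sizes alone the log2 fold changes were 1.42 for CSF1, 2.67 for TSLP, 0.88 for CSF1R and 0.73 for CSF2RB, and WDR36 was at -0.06. Without a filter 2 other ligands and 1 response gene were called lower, THPO and C1QC having entered the test.

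Leaving out each library gave log2 fold changes of 1.57 to 1.63 for CSF1, 2.63 to 2.97 for CSF2, 1.82 to 2.44 for CSF3, 2.82 to 2.91 for TSLP, 1.06 to 1.09 for CSF1R, 0.87 to 0.99 for CSF2RB and 0.07 to 0.40 for CSF3R. Response genes called lower were 0 to 1, and P4HA2-AS1 ran from -0.49 to 0.46. The replicate numbers did not pair the libraries: deviations of same-numbered libraries from their group means correlated at 0.015, 0.006 and -0.014. With the replicate block the share of calls higher stayed at 47.3%, the calls of FLT3LG (adjusted p = 0.0508, edgeR) and TMEM232 (0.0548) were lost, CSF2 was at 2.77 and TSLP at 2.86. The counts of CSF3, CSF3R and IL34 limit their precision most.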
